A study of Mus musculus with 6 samples.

Results

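The genes described are 8 genes of GABAergic identity and transmission, Gad1, Gad2, Slc32a1, Abat, Pax2, Ptf1a, Pvalb and Sst. They were listed by name rather than by a threshold on a measured value, with earlier results of these data known, and each matched 1 of the 53421 rows in the table of counts from cultured cerebellar granule cells (GCs) after YTHDF2 knockdown (KD). The RNA came from GCs of C57BL/6 mice, labelled postnatal day 8, that were infected with lentivirus and selected with puromycin. In 3 libraries the virus carried a short hairpin RNA against Ythdf2 (shYthdf2), and in 3 it carried a control hairpin (shCtrl). Both groups are numbered 1, 2 and 4 in the library names. The library names are read here as a single hairpin against Ythdf2, but the RNA-seq methods of the study do not name the hairpin used. The virus was not aimed at a cell type, so cells of any type in the dish could have contributed RNA. The titles of the samples contradict the library names and call the shYthdf2 libraries wild type. The names were followed here, and if the titles were right, every direction given here would be inverted. The comparison of shYthdf2 with shCtrl asks how the mRNA levels of these genes differed after the knockdown.

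In the cerebellum, GABA is the transmitter of Purkinje cells and of the inhibitory interneurons, whereas GCs, the main cells of these cultures, release glutamate. Glutamate decarboxylases make GABA from glutamate, a vesicular transporter loads it into synaptic vesicles, plasma membrane transporters clear it from the synapse, and GABA transaminase breaks it down in mitochondria. GABAergic neurons of the cerebellum descend from progenitors that need the transcription factor Ptf1a, and the young interneurons among them turn on Pax2. GCs and their progenitors come from a different germinal zone and normally receive GABA through GABA-A receptors.

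The libraries held 17246821 to 21546595 counts. Ythdf2 itself, the targeted gene, had 501, 402 and 501 normalized counts in shYthdf2 replicates 1, 2 and 4 and 618, 841 and 628 in shCtrl replicates 1, 2 and 4 (counts scaled to a common library size by the TMM method). The 3 shYthdf2 libraries were lower than the 3 shCtrl libraries, and the log2 fold change was -0.57 (standard error, SE, 0.16, adjusted p = 0.125 from the quasi-likelihood test of edgeR, adjusted over all genes tested). With DESeq2 the adjusted p of Ythdf2 was 0.0406. Over 17214 genes tested, 104 passed an adjusted p of 0.05, which is 0.604%. Replicate 2 stood apart from replicates 1 and 4 in both groups. The difference between libraries exceeded counting noise by a chi-square per degree of freedom of 3.34 (shYthdf2) and 4.64 (shCtrl) between replicates 1 and 4, and of 32.9 to 54.8 between replicate 2 and the others of its group. Across the groups, the value between the replicate 2 libraries was lower, at 22.1. For shCtrl replicate 2 it was 47.2 and 47.3 to shYthdf2 replicates 1 and 4. To shCtrl replicates 1 and 4 it was 54.8 and 52.9, so this control was no nearer to its own group.

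The promoters of Gad1, Gad2 and Slc32a1 are shown because these 3 genes together let a cell make GABA and release it. Gad1 and Gad2 encode the glutamate decarboxylases GAD67 and GAD65, and Slc32a1 encodes the vesicular GABA transporter VGAT. Each sequence is the 250 bases before the transcription start in RefSeq's annotation of GRCm38.p6, on the plus strand of chromosome 2, at chr2:70561879-70562128 for Gad1, chr2:22622077-22622326 for Gad2 and chr2:158610508-158610757 for Slc32a1. Capitals mark matches to GCCNNNGGC, a form of the AP-2 motif, searched because Tfap2b, a gene of an AP-2 factor, was the pathway gene that passed the test, or to CAGCTG, an E-box of the kind bound by Ptf1a. Both motifs read the same on either strand, and no match of one overlapped a match of the other.
Gad1: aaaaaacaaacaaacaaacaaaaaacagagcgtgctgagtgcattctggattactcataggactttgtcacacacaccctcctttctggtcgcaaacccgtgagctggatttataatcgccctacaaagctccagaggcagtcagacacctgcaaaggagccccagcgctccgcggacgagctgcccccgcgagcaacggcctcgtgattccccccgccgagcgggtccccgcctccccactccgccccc
Gad2: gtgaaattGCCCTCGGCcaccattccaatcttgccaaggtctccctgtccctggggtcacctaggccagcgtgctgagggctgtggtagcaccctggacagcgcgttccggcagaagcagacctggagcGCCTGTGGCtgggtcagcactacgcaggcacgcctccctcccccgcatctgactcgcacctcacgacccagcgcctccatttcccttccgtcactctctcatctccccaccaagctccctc
Slc32a1: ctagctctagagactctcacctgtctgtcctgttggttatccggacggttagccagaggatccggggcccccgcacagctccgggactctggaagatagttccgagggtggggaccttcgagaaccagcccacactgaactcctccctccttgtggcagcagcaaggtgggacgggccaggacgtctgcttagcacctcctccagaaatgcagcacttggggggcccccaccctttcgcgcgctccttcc
In the Gad2 promoter, 2 AP-2 matches began 242 and 121 bases before the start, and the Gad1 and Slc32a1 windows held neither motif. RefSeq's table held promoters for 7 of the 8 genes, all but Abat, and 10 promoters in all. AP-2 matches were present for Gad2, Pax2 and Pvalb, and an E-box match for Pax2. Of all 32851 promoters in the table, 13.7% held the AP-2 motif and 13.0% held the E-box in a window of the same length.

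Levels of different genes were compared in CPM (a gene's counts relative to the total of its library times its TMM factor). Each was divided by the length of the annotated exons in kilobases. In the shCtrl libraries, Slc32a1 had the highest mean at 29.8 ± 4.83 (SD, n = 3), followed by Abat at 26.1 ± 9.41 (SD, n = 3) and Gad1 at 22.7 ± 2.02 (SD, n = 3). The ranges of Slc32a1 (26.7 to 35.4) and Gad1 (21.4 to 25.1) did not overlap, and that of Abat (20.2 to 36.9) covered both, so the place of Abat in this order is not set. The order also depends on the exon lengths used, which were 2797 bases for Slc32a1, 7748 for Abat and 7639 for Gad1. Which of these exons the cells used was not tested. Before the division by length, Gad1 was above Slc32a1 in shCtrl, with means of 3300 and 1584 normalized counts. Pax2 followed at 6.92 ± 0.271 (SD, n = 3), then Pvalb at 3.18 ± 1.03 (SD, n = 3) and Gad2 at 3.12 ± 0.520 (SD, n = 3), whose ranges of 2.22 to 4.26 and 2.77 to 3.72 overlapped. Sst had 1.23 ± 0.483 (SD, n = 3), and Ptf1a at most 0.0619. Over all 6 libraries, the mean levels of Slc32a1, Abat and Gad1 lay at percentiles 90.4, 89.8 and 88.4 of the genes tested. The pair of decarboxylase genes stood far apart on this scale, with Gad2 at percentile 46.5.

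After the knockdown, Gad1 was the gene with the clearest difference, at 141% of the shCtrl level and higher in every shYthdf2 library. Gad2 and Abat had fold changes of like size in groups that overlapped, and Slc32a1 and Pax2 had smaller ones. Pvalb and Sst had low counts that varied widely between libraries, and Ptf1a was not detected in most libraries. None of the 7 tested genes passed the adjusted threshold in edgeR's test, which 0.604% of all genes tested did. In bulk RNA, a change in the number of GABAergic cells and a change in the RNA of each cell cannot be told apart.

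Gad1 (ENSMUSG00000070880, chr2:70553072-70602014 of GRCm38, plus strand), the gene of the decarboxylase found throughout the neuron, had 4446, 5168 and 4306 normalized counts in shYthdf2 replicates 1, 2 and 4. In shCtrl replicates 1, 2 and 4 it had 3100.0, 3637 and 3164. All 3 shYthdf2 libraries were above all 3 shCtrl libraries, and replicate 2 was the highest of its group in both. Mean levels were 4640.0 ± 462 (SD, n = 3) and 3300.2 ± 293 (SD, n = 3), so the shYthdf2 level was 141% of the shCtrl level. The difference had the smallest p that 3 libraries against 3 allow (p = 0.1, two-sided exact permutation test). The log2 fold change was 0.49 (SE 0.11, 95% interval 0.22 to 0.76, unadjusted p = 0.00312), and edgeR's adjusted p = 0.0876 missed the threshold of 0.05. With the replicate number as a block, the log2 fold change was 0.49 (SE 0.06) and the adjusted p = 0.0450 passed it. It also passed with DESeq2 (adjusted p = 0.0112) and without shCtrl replicate 2 (log2 fold change 0.57, adjusted p = 0.0147), and over the 14 alternatives the adjusted p ranged from 0.00543 to 0.361.

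Gad2 (ENSMUSG00000026787, chr2:22622205-22693874, plus strand) encodes the decarboxylase that is concentrated at nerve terminals. It had 408, 612 and 398 normalized counts in shYthdf2 replicates 1, 2 and 4 and 321, 415 and 309 in shCtrl replicates 1, 2 and 4. The groups overlapped, because shCtrl replicate 2 lay just above shYthdf2 replicates 1 and 4. Means were 472 ± 121 (SD, n = 3) and 348 ± 58.0 (SD, n = 3), with a log2 fold change of 0.44 (SE 0.21, 95% interval -0.05 to 0.93) that did not pass the test (edgeR adjusted p = 0.291). Without shYthdf2 replicate 2 the log2 fold change was 0.21 (adjusted p = 0.476). The decarboxylase pair therefore had fold changes of like size, and the log2 ratio of Gad1 to Gad2 counts within a library was 3.32 ± 0.209 (SD, n = 3) in shYthdf2 and 3.25 ± 0.113 (SD, n = 3) in shCtrl, a difference of 0.07 that was within the spread (p = 0.6, two-sided exact permutation test).

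Slc32a1 (ENSMUSG00000037771, chr2:158610767-158615748, plus strand) had 1502, 2431 and 1568 normalized counts in shYthdf2 replicates 1, 2 and 4. In shCtrl replicates 1, 2 and 4 it had 1455, 1880.0 and 1418. Replicate 2 was high in both groups, and the groups overlapped. Mean levels were 1834 ± 518 (SD, n = 3) and 1584 ± 257 (SD, n = 3), and the log2 fold change was 0.21 (SE 0.21, 95% interval -0.28 to 0.70, edgeR adjusted p = 0.615). The vesicular transporter gene thus did not pass the test. Without shYthdf2 replicate 2, which leaves the high shCtrl replicate 2 in the fit, the log2 fold change of Slc32a1 was -0.05 (adjusted p = 0.870), and without shCtrl replicate 2 it was 0.35 (adjusted p = 0.304). With the replicate block it was 0.19 (adjusted p = 0.197).

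Abat (ENSMUSG00000057880, chr16:8513429-8621568, plus strand) encodes the mitochondrial GABA transaminase, which glia express as well as neurons. It had 4729, 5923 and 4810 normalized counts in shYthdf2 replicates 1, 2 and 4 and 3108, 5437 and 2972 in shCtrl replicates 1, 2 and 4. The shCtrl libraries of replicates 1 and 4 were the lowest of all, and shCtrl replicate 2 lay within the shYthdf2 range. Means were 5154 ± 667 (SD, n = 3) and 3839 ± 1385 (SD, n = 3), and the log2 fold change of 0.43 (SE 0.24, 95% interval -0.13 to 0.98) did not pass (edgeR adjusted p = 0.363). Abat passed with a batch term for replicate 2 in a fit of all 6 libraries (log2 fold change 0.47, SE 0.11, adjusted p = 0.0311), where 22.1% of all genes passed. It also passed without shCtrl replicate 2 (log2 fold change 0.76, SE 0.12, adjusted p = 0.00999), where 18.3% of all genes did. With any other library left out it did not pass, and the log2 fold change of Abat was lowest without shCtrl replicate 4, at 0.27.

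**Figure D1:**
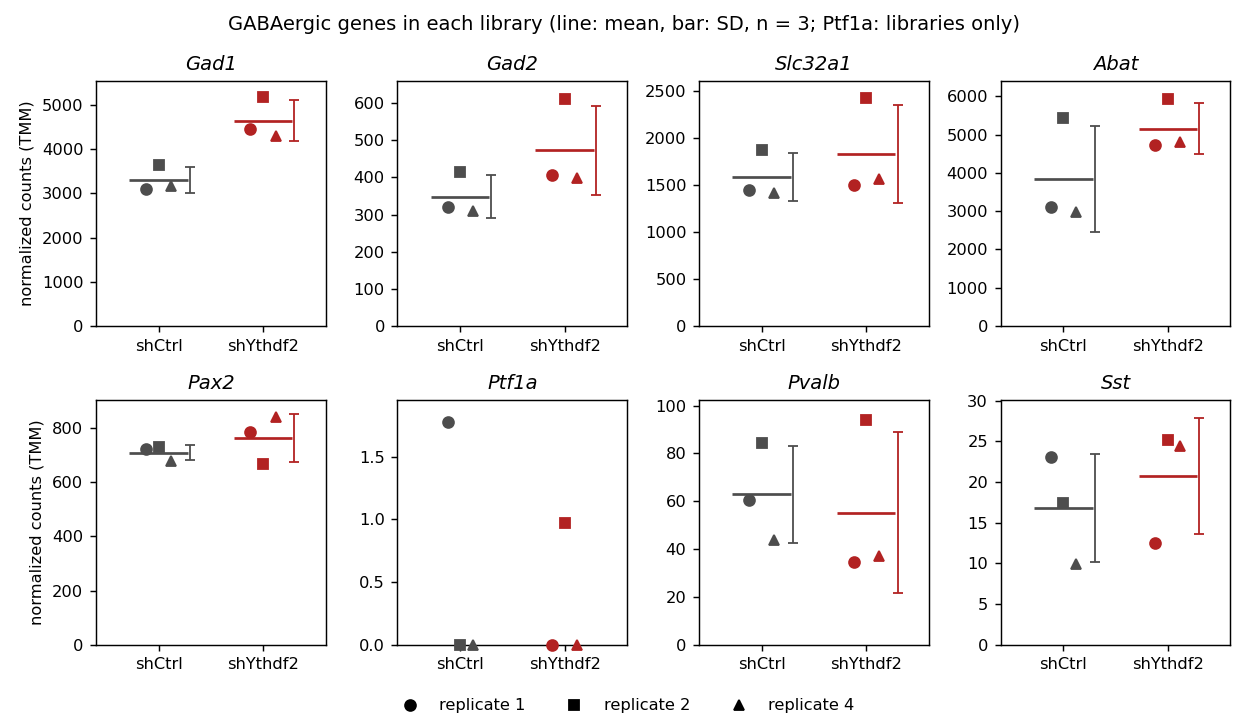
Normalized counts (y axis, linear, from 0) of the 8 GABAergic genes in each shCtrl and shYthdf2 library, with the symbols giving the replicate number, lines the group means and bars the SD. Gad1 is the gene whose groups do not overlap, at 3100.0 to 3637 in shCtrl and 4306 to 5168 in shYthdf2, and Ptf1a, shown by its libraries alone, is near 0.

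Of the lineage factors, Pax2 (ENSMUSG00000004231, chr19:44756045-44837871, plus strand) marks the immature inhibitory interneurons that migrate through the white matter around birth and after it. Pax2 had 786, 668 and 843 normalized counts in shYthdf2 replicates 1, 2 and 4 and 724, 730 and 679 in shCtrl replicates 1, 2 and 4. The highest and the lowest library were both shYthdf2, so the groups overlapped. With means of 766 ± 89.1 (SD, n = 3) and 711 ± 27.8 (SD, n = 3), the log2 fold change was 0.11 (SE 0.12, edgeR adjusted p = 0.662), and its 95% interval ran from -0.17 to 0.39. That interval leaves out the value fitted for Gad1, but the 95% interval of Gad1 (0.22 to 0.76) overlaps it. The intervals therefore do not tell whether Pax2 changed less than Gad1.
Ptf1a (ENSMUSG00000026735, chr2:19445663-19447501, plus strand), the factor that commits progenitors to the GABAergic fate, was at the limit of detection. It had 0, 1 and 0 counts in shYthdf2 replicates 1, 2 and 4 and 2, 0 and 0 in shCtrl replicates 1, 2 and 4. In the 4 libraries without a count, 0 counts allow a level of up to 0.148 to 0.174 CPM (here without the TMM factor), for counting error only. Ptf1a was removed by the filter on low counts and has no fold change.

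Both markers of mature interneuron classes had few counts. Pvalb (ENSMUSG00000005716, chr15:78191114-78206400, minus strand) encodes the calcium buffer parvalbumin, which molecular layer interneurons and Purkinje cells make as they mature. Pvalb had 34.5, 94.0 and 37.1 normalized counts in shYthdf2 replicates 1, 2 and 4 and 60.3, 84.3 and 43.9 in shCtrl replicates 1, 2 and 4. The libraries of replicate 2 were the highest in both groups, and the groups overlapped. The log2 fold change was -0.18 (SE 0.45, 95% interval -1.24 to 0.87, edgeR adjusted p = 0.853). Its sign turned without shYthdf2 replicate 1 (0.06), without shYthdf2 replicate 4 (0.03) and without shCtrl replicate 2 (0.09), and it was -0.81 without shYthdf2 replicate 2.
Sst (ENSMUSG00000004366, chr16:23889573-23890958, minus strand) encodes the peptide somatostatin, used as a marker of inhibitory interneuron subtypes. It had 12.5, 25.2 and 24.4 normalized counts in shYthdf2 replicates 1, 2 and 4 and 23.1, 17.4 and 9.89 in shCtrl replicates 1, 2 and 4. The groups overlapped over most of their range. The log2 fold change was 0.29 (SE 0.43, edgeR adjusted p = 0.746), and the 95% interval of -0.72 to 1.30 shows that at 9 to 26 counts in a library, differences of a doubling could not be told from none.

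Of the 7 tested genes, 0 passed the adjusted threshold in edgeR's test, and 1 (Gad1) had an unadjusted p under 0.05, where 20.1% of all genes did. DESeq2 called 1 of the 7 (Gad1) and 7.67% of all genes, and limma-voom called 0 and 0.139%. The gene without overlap between the groups was 1 of the 7, again Gad1, which was higher in shYthdf2, while 12.6% of all genes tested were higher without overlap. These shares are near the background of the whole table. The fitted log2 fold changes were positive for 6 of the 7 genes, with a median of 0.29, beside a median of 0.01 over all genes tested, of which 8751 had a positive and 8463 a negative value. With the replicate block 1 of 7 genes passed (Gad1), beside 1.35% of all genes.

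**Figure D2:**
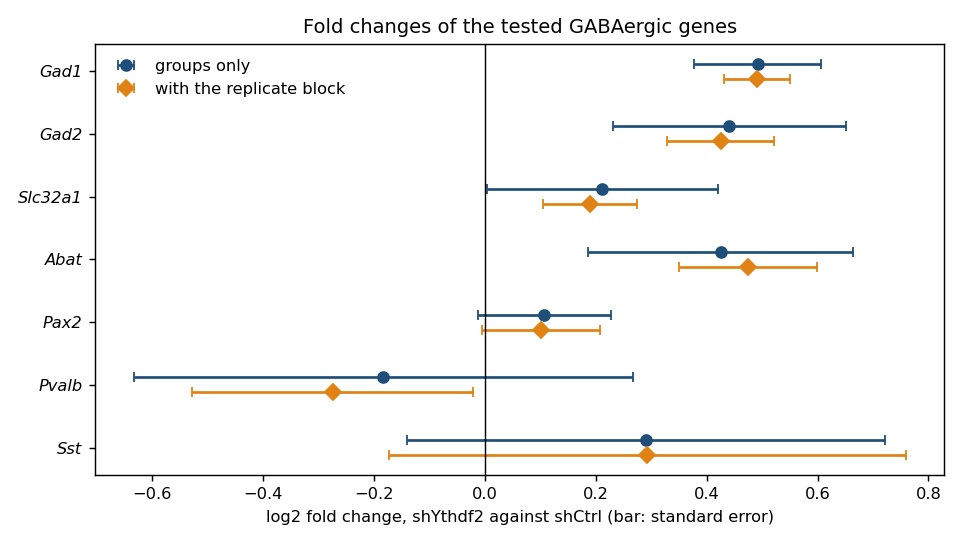
Log2 fold change of shYthdf2 against shCtrl (x axis) for the 7 tested GABAergic genes (y axis), fitted from the groups only (circles) and with the replicate number as a block (diamonds), with bars of 1 standard error. Gad1 lies at 0.49 in both fits with an error of 0.11 and 0.06, and the bars of Pvalb and Sst are the widest.

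Libraries with the same replicate number deviated together from their group means, which a shift of replicate 2 shared by both groups would give by itself. The differences within a number were also compared, but the pairing of replicates 1 and 4 across the groups is not established. For Gad1 the differences between the shYthdf2 and the shCtrl library were 0.52, 0.51 and 0.44 in replicates 1, 2 and 4, on a scale of log2(normalized count + 0.5). Gad1 was thus higher by nearly the same amount in each pair, replicate 2 included. For Gad2 they were 0.34, 0.56 and 0.37, and for Slc32a1 0.05, 0.37 and 0.15. For Abat the difference of replicate 2 was the smallest, with 0.61, 0.12 and 0.69. These 4 genes of synthesis, transport and breakdown were higher in shYthdf2 in all 3 pairs, as were 27.0% of all genes tested, and the differences of Pax2, Pvalb and Sst had both signs. Pax2 had 0.12, -0.13 and 0.31, Pvalb -0.80, 0.16 and -0.24, and Sst -0.85, 0.52 and 1.26.

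**Figure D3:**
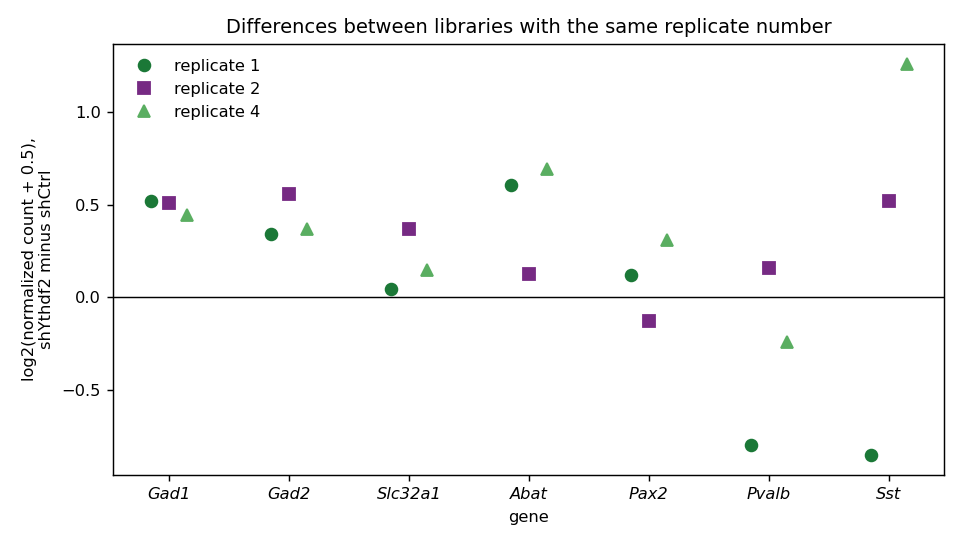
Difference between the shYthdf2 and the shCtrl library of the same replicate number (y axis, log2 of normalized count + 0.5) for each of the 7 tested genes (x axis). The 3 points of Gad1 lie between 0.44 and 0.52, those of Gad2, Slc32a1 and Abat are all above 0, and those of Pax2, Pvalb and Sst lie on both sides of it.

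Replicate 2 differed from the mean of replicates 1 and 4 in the same direction in both groups for the genes of GABA synthesis and release. On the log2 scale it was higher by 0.24 in shYthdf2 and 0.22 in shCtrl for Gad1, by 0.60 and 0.40 for Gad2 and by 0.66 and 0.39 for Slc32a1. For Abat the excess of replicate 2 was 0.31 in shYthdf2 and 0.84 in shCtrl, and for Pvalb it was 1.38 and 0.71. Pax2 was lower by 0.28 in shYthdf2 replicate 2 and higher by 0.06 in shCtrl replicate 2. With a batch term for replicate 2 in place of the block, Gad1 (adjusted p = 0.00543), Gad2 (0.0206) and Abat (0.0311) passed edgeR's test with log2 fold changes of 0.49, 0.43 and 0.47, in a fit where 22.1% of all genes passed. Slc32a1 did not pass in that fit (log2 fold change 0.19, adjusted p = 0.103). The labels do not say what sets replicate 2 apart.

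The ratio of each pair of genes within a library does not depend on the scaling of that library. Among the 21 pairs of the 7 tested genes, 2 had groups without overlap, beside 24.7% of all pairs of genes tested, so such pairs were not more frequent here than in the whole table. The log2 ratio of Gad1 to Pax2 was 2.60 ± 0.312 (SD, n = 3) in shYthdf2 and 2.21 ± 0.110 (SD, n = 3) in shCtrl, so Gad1 was higher relative to Pax2 by 0.39. The log2 ratio of Gad2 to Slc32a1 was -1.95 ± 0.0599 (SD, n = 3) and -2.18 ± 0.0111 (SD, n = 3), a difference of 0.24. Each had the smallest unadjusted p possible (p = 0.1, two-sided exact permutation test), and adjusted over the 21 pairs the smallest p was 0.63. With 3 libraries against 3 no pair could have passed the threshold of 0.05, so the test does not tell whether these ratios differ.

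The genes with the profile most like that of each gene were sought among the 12555 genes that had a symbol and averaged at least 50 normalized counts. Likeness was the root mean square difference of log2 normalized counts over the 6 libraries, after each gene was centred on its mean. For Gad1 the nearest genes were Lamb2 (0.03), a laminin chain, Btbd3 (0.04) and Nuak1 (0.05). For Gad2 they were Nid1 (0.04), the basement membrane protein nidogen, Tram1l1 (0.05) and Grb10 (0.06). For Slc32a1 they were Fut10 (0.03), Trim32 (0.03) and Klhl25 (0.05). None of these 9 is a gene of GABA synthesis or release. Among the described genes themselves, Slc32a1 was the one nearest to Gad2, at 0.12 and rank 109, and Gad2 the one nearest to Gad1, at 0.14 and rank 424. The profile of Pvalb was distant from that of Gad1, at 0.59 and rank 11249.

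The pathway around these genes was described with 7 lists of 74 genes, of which 54 were tested. An adjusted p under 0.05 was reached by 1 of the 54 in edgeR's test, beside 0.604% of all genes tested. Of the 54, 34 had a positive and 20 a negative log2 fold change, with a median of 0.19 beside 0.01 for all genes tested. DESeq2 called 6 of the 54, where it called 7.67% of all genes. Among the 6 were Tfap2b, Slc38a3, Iqsec3, Shisa7 and, named after its values were seen, Gabrg1. The gene that passed in edgeR's test was Tfap2b (transcription factor AP-2 beta), expressed in GABAergic neurons of the developing cerebellum. Tfap2b had 1122, 1174 and 1073 normalized counts in shYthdf2 replicates 1, 2 and 4 and 594, 725 and 582 in shCtrl replicates 1, 2 and 4. The shYthdf2 libraries were all above the shCtrl libraries, with means of 1123 ± 50.7 (SD, n = 3) and 634 ± 79.1 (SD, n = 3). Tfap2b rose by a log2 fold change of 0.83 (SE 0.12, adjusted p = 0.0496), and with the replicate block the adjusted p was 0.0445. The call was lost with limma-voom (adjusted p = 0.0532) and without shYthdf2 replicate 1 (0.286), shYthdf2 replicate 4 (0.269), shCtrl replicate 1 (0.258) or shCtrl replicate 4 (0.241), with log2 fold changes of 0.76 to 0.86. The related Tfap2a and the other tested factors of that list, among them Lhx1, Lhx5, Prdm13, Skor2 and Neurog2, did not pass, and the median over the 8 tested was 0.10. Neurog2 had a log2 fold change of 0.22 (SE 0.21, adjusted p = 0.603). Neurog1 and Pax8 had at most 2 counts in a library.

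**Figure D4:**
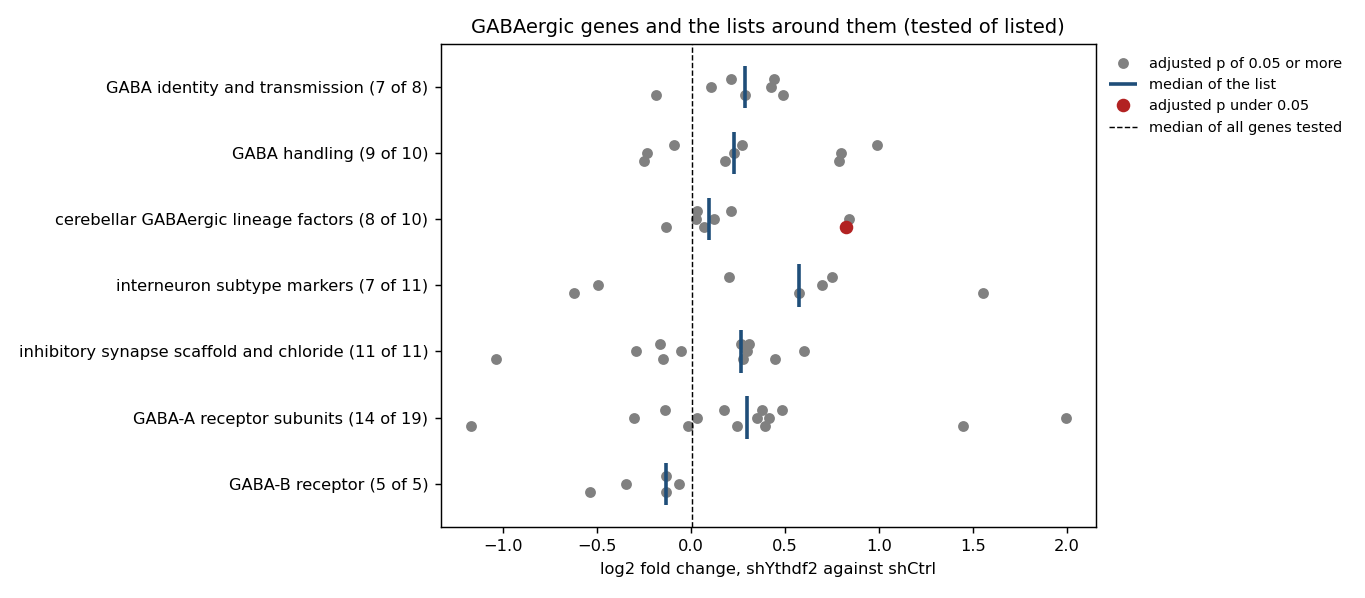
Log2 fold change of shYthdf2 against shCtrl (x axis) for each tested gene of the GABAergic genes and of 6 lists around them (y axis, with the number tested of those listed), where vertical bars are list medians and the dashed line is the median of all genes tested. Tfap2b, at 0.83, is the gene past the adjusted threshold, and the 5 GABA-B receptor genes lie below 0, with a median of -0.13.

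In the list of GABA handling, 6 of 9 tested genes had a positive log2 fold change, with a median of 0.23. In edgeR's test 0 passed the adjusted threshold and 2 of the 9 had an unadjusted p under 0.05, beside 20.1% of all genes. Slc38a3, a glutamine transporter of astrocytes that feeds the supply of glutamate, had a log2 fold change of 0.79 (SE 0.20, adjusted p = 0.101), and its groups did not overlap. Slc38a3 passed without shCtrl replicate 2 (log2 fold change 0.87, adjusted p = 0.0311).

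Of the interneuron subtype markers, 7 of 11 were tested, 5 with a positive log2 fold change and a median of 0.58. In edgeR's test 0 passed and 1 of the 7 had an unadjusted p under 0.05, beside the same 20.1% of all genes. Nos1, the neuronal nitric oxide synthase made by molecular layer interneurons and also by GCs, had 4199, 2983 and 4187 normalized counts in shYthdf2 replicates 1, 2 and 4 and 392, 3071 and 405 in shCtrl replicates 1, 2 and 4. Nos1 was thus low in shCtrl replicates 1 and 4 alone, and shCtrl replicate 2 was level with shYthdf2 replicate 2. The log2 fold change was 1.56 (SE 0.77, edgeR adjusted p = 0.306), and without shCtrl replicate 2 it was 3.25 (adjusted p = 0.000880). Nxph1, a neurexin ligand of inhibitory neurons, was also lowest in shCtrl replicates 1 and 4, at 66.5 and 56.0 normalized counts against 213 in shCtrl replicate 2, with a log2 fold change of 0.75 (SE 0.51, adjusted p = 0.457) and of 1.62 (adjusted p = 0.0149) without shCtrl replicate 2. The peptide genes Npy and Vip had at most 2 counts in a library and Cck at most 7. The 8 forebrain factors of the GABAergic fate, among them Dlx1, Dlx2 and Lhx6, had at most 8 counts in any library, and 0 were tested.

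On the receiving side of inhibitory synapses, 6 of the 11 genes for scaffolds and chloride transport had a positive and 5 a negative log2 fold change, with a median of 0.27. In edgeR's test 0 passed and 5 of the 11 had an unadjusted p under 0.05, 3 of them higher and 2 lower in shYthdf2, beside 20.1% of all genes in either direction. Iqsec3, a protein that binds the inhibitory scaffold gephyrin, had 667, 603 and 696 normalized counts in shYthdf2 replicates 1, 2 and 4 and 1703, 763 and 1570 in shCtrl replicates 1, 2 and 4. All shYthdf2 libraries were lower, with a log2 fold change of -1.04 (SE 0.28, adjusted p = 0.114), and Iqsec3 passed without shCtrl replicate 2 at -1.32 (adjusted p = 0.00124). Shisa7, an auxiliary subunit of GABA-A receptors, had a log2 fold change of 0.60 (SE 0.18, adjusted p = 0.131) without overlap of the groups, and passed without shYthdf2 replicate 2 at 0.78 (adjusted p = 0.0302).
Of the 19 GABA-A receptor subunit genes, 14 were tested, 10 with a positive log2 fold change and a median of 0.30. In edgeR's test 0 passed and 4 of the 14 had an unadjusted p under 0.05, beside 20.1% of all genes. Gabra3, an alpha subunit, had the largest log2 fold change among subunits that averaged 50 normalized counts or more (0.49, SE 0.20, adjusted p = 0.234), and without shCtrl replicate 2 it passed, at 0.72. All 5 genes of the GABA-B receptor, the receptor coupled to G proteins, had a negative log2 fold change, with a median of -0.13, and 0 passed edgeR's test, adjusted or not. Kctd12 (-0.34, SE 0.24, adjusted p = 0.469) and Kctd8 (-0.13, SE 0.18, adjusted p = 0.725), which encode auxiliary subunits of that receptor, were the furthest from 0 among the more abundant of these genes, those of 50 normalized counts or more. Single libraries moved both values. Without shYthdf2 replicate 2 the log2 fold change was -0.098 for Kctd12 and -0.36 for Kctd8, and that of Kctd8 was -0.015 without shYthdf2 replicate 1 and -0.045 without shYthdf2 replicate 4. Leaving out shCtrl replicate 2 brought 20 of 55 pathway genes past the adjusted threshold, beside 18.3% of all genes, and leaving out shYthdf2 replicate 2 brought 3, beside 4.70%.

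Markers of the cells in the dish moved between the libraries as well, and their part in the differences above was not tested. The summed level of 10 granule cell markers, of which Zic1 and Zic2 were the most abundant, was 7427 to 7479 CPM in shYthdf2 and 7489 to 8326 in shCtrl, the highest sum of any list in every library. The small gap between these ranges depended on the TMM factor (p = 0.1 with it and 0.4 without it, two-sided exact permutation test). The 11 interneuron subtype markers, led by Kit and Nos1, summed to 466 to 525 CPM in shYthdf2 and 217 to 431 in shCtrl, and the groups did not overlap (p = 0.1, two-sided exact permutation test). Nos1 is also made by GCs, and 2 of the 7 tested members of that list had a negative log2 fold change, down to -0.62. The 10 Purkinje cell markers, among them Rora, summed to 235 to 250 and 166 to 191, again without overlap, but the median log2 fold change of the 9 tested was -0.01. Rora, a nuclear receptor of Purkinje cells and molecular layer interneurons, had a log2 fold change of 0.61 that missed the threshold in edgeR's test (adjusted p = 0.0506) and passed with the replicate block (adjusted p = 0.0450). Pcp2, a defining Purkinje cell gene, had means of 33.6 normalized counts in shYthdf2 and 39.1 in shCtrl, none of the list was at 0 in every library, and Ppp1r17 had at most 12 counts.
The other lists overlapped between the groups. The 8 oligodendrocyte lineage markers, among them Mbp, summed to 680 to 892 CPM in shYthdf2 and to 252 to 879 in shCtrl, where replicate 2 was the high library. The 10 astrocyte and Bergmann glia markers, led by Gfap and Fabp7, spanned 675 to 730 and 487 to 814, and the 6 microglia markers, led by C1qa and Csf1r, 15.1 to 39.3 and 7.00 to 27.6. Of the 10 astrocyte and Bergmann glia markers, 8 had a positive and 2 a negative log2 fold change. Single genes among them differed without overlap in opposite directions, Slc1a2 at -1.44 (edgeR adjusted p = 0.0552) and Aqp4 at 0.87 (edgeR adjusted p = 0.173). The 8 vascular and fibroblast markers, led by Col3a1 and Col1a1, spanned 161 to 411 and 119 to 344, the 8 progenitor markers, led by Mycn and Ccnd2, 102 to 128 and 76.6 to 114, and the 5 unipolar brush cell markers, among them Calb2, 570 to 615 and 537 to 637. Abat and Nos1 were low in shCtrl replicates 1 and 4 against shCtrl replicate 2. The summed markers of interneuron subtypes, oligodendrocytes, astrocytes and microglia were also low there. The sums of vascular cells and fibroblasts, progenitors and unipolar brush cells were highest in replicate 2 of both groups, as were those of oligodendrocytes and Purkinje cells. Vascular and fibroblast markers summed to 161, 411 and 164 CPM in shYthdf2 replicates 1, 2 and 4 and to 123, 344 and 119 in shCtrl. For Gad1 the gap within shCtrl was smaller than for Abat and Nos1, with 3100.0 and 3164 normalized counts in shCtrl replicates 1 and 4 and 3637 in shCtrl replicate 2. The cause of these gaps was not tested.
Reads that could belong to overlapping genes were few. Gad1os, on the strand opposite Gad1, had at most 9 counts in a library, Gm14205, whose exons overlap Slc32a1 on the opposite strand, had at most 4, and the antisense genes at Pax2 had at most 6. The sources used here do not say whether the libraries kept the strand.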

How the data were processed

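The authors deposited a table of raw counts of reads per gene for 6 RNA-seq libraries of cultured GCs, 3 of shYthdf2 and 3 of shCtrl. By the methods of the study, reads of low quality were removed, aligned by HISAT and TopHat2 to GRCm38, and counted per gene by HTSeq, whereas the submitters' processing notes name Bowtie 0.12.2 and mm9 without a role. The library kit is named differently in the labels and in the methods. Nothing was normalized or pooled before deposit. Counts with IDs of 785 genes lie outside the annotation, and 52403 genes could be given a symbol from the GRCm38 annotation.
Samples were grouped by the library names in their descriptions, never by values, because the titles give the groups the other way round. The test was that of edgeR 4.0.16 under R 4.3.3 (filterByExpr with a minimum count of 10 and a minimum total of 15, TMM, quasi-likelihood test, Benjamini-Hochberg adjustment over all 17214 genes tested). The totals of 17246821 to 21546595 counts make genes with few counts imprecise. The methods call the replicates biological, but the labels do not tie them to separate cultures, so p-values measure the spread between these libraries, which may in part be technical.
Correlations of deviations from the group means between libraries of the same number were 0.251, 0.362 and 0.291 for replicates 1, 2 and 4. Deviations cancel within a group of 3, so a shift of replicate 2 in both groups makes these correlations positive for replicates 1 and 4 too. Correlations between libraries of unlike number were not computed, so these values do not show that the pairing by number is specific. By chi-square per degree of freedom, shYthdf2 replicate 1 was nearer to shCtrl replicate 4 (47.1) than to shCtrl replicate 1 (53.3). For shYthdf2 replicate 4 the values were 43.7 to shCtrl replicate 4 and 52.0 to shCtrl replicate 1. The labels give the numbers alone, and the replicate number was tried as a block. Also tried were RLE size factors, no normalization factor, DESeq2 1.42.0, limma-voom (limma 3.58.1), other filters on low counts, a batch term for replicate 2 and leaving out each library in turn. Single values were compared by two-sided exact permutation tests, in which 3 libraries against 3 cannot go below p = 0.1. The tests were run on simulated data with known changes, drawn with the spread that edgeR estimated and without a replicate 2 set apart. There, DESeq2 made a larger share of false calls than edgeR's test. Because that setting differs from the real libraries, it does not tell which test is closer for them. Plots were drawn with matplotlib 3.10.9 in Python 3.11.15.
The genes described, the lists around them and the batch term were chosen with earlier results of these data known. Named were the 8 genes, Ythdf2, pathway genes with an adjusted p under 0.05, the 2 with the largest absolute log2 fold change in each pathway list among genes with a mean of at least 50 normalized counts, the 3 genes most like Gad1, Gad2 and Slc32a1, and the 2 most abundant genes of each marker list. Some genes that these rules name are not reported here. Other genes (Pcp2, Ppp1r17, Slc1a2, Aqp4 and members of lists given by their counts) were named after their values were seen. Promoter sequences are from RefSeq (GRCm38.p6), and exon lengths are the union of annotated exons. No amino acid sequences were used here.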

Additional observations from a re-analysis of the deposited data

How the results depend on the processing

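With alternatives in place of edgeR's test on TMM-normalized counts, the number of the 7 tested GABAergic genes past the adjusted threshold was 0 in the test as reported and 0 with RLE size factors, without a normalization factor, with limma-voom and with either other filter, where 1 or 2 had an unadjusted p under 0.05. It was 1 with DESeq2, 1 with the replicate block and 3 with the batch term for replicate 2, and 0 to 2 with a library left out. The number of pathway genes past it (1 as reported) was 6 with DESeq2, 0 with limma-voom, 2 without a filter on low counts and 21 with the batch term, and 0 to 20 with a library left out. Over all genes (104 as reported) it was 1321 with DESeq2, 24 with limma-voom, 639 without a filter on low counts, 232 with the replicate block and 3799 with the batch term, and 0 to 3239 with a library left out, the highest being without shCtrl replicate 2, then 829 without shYthdf2 replicate 2. The cause of these differences was not tested.
Of 97 refits of single GABAergic genes, 86 kept the direction and the side of the threshold. With a library left out, the log2 fold change of Slc32a1 ranged from -0.0474 (without shYthdf2 replicate 2) to 0.354 (without shCtrl replicate 2), and that of Pvalb from -0.814 (without shYthdf2 replicate 2) to 0.0852 (without shCtrl replicate 2), with positive values also without shYthdf2 replicate 1 (0.0629) and shYthdf2 replicate 4 (0.0341). With the replicate block as a pairing of the libraries, Gad1 and the Purkinje cell marker Rora passed (adjusted p = 0.0450 for both), and the block changed no other call among the 120 tested genes of all lists. When the median log2 fold change of a marker list took the place of its summed level, the sign turned for granule cells (0.0523 for a log2 ratio of -0.0689), Purkinje cells (-0.0119 for 0.463) and unipolar brush cells (-0.0136 for 0.0387). Without a normalization factor the median of all genes moved by less than 0.1. Depth limits Ptf1a, Pvalb and Sst, with at most 2, 97 and 26 counts in a library.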
